A study of Homo sapiens with 15 samples.

Results

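Cyclin-dependent kinase (CDK) inhibitors are the proteins that hold cyclin-CDK complexes in check, and 8 genes were followed here across every library of a study of MCF-10A cells with edited NF1: the CDK inhibitors CDKN1A, CDKN1B, CDKN1C, CDKN2A, CDKN2B, CDKN2C and CDKN2D, and MTAP, the neighbour of CDKN2A on the short arm of chromosome 9. They were chosen by name from the 60721 genes in the deposited tables, and all 8 were found there. CDKN2A and CDKN2B had no count in any of the 15 libraries, MTAP had between 0 and 10 counts per library, and the other 5 genes were counted in every library and passed the filter on low counts. Among those 5, CDKN1A was lower and CDKN1B higher in parental than in empty-vector cells, and CDKN2D was higher in the guide 2 line than in empty-vector cells. No other change passed the test in any of the 8 comparisons made. Each of these calls was lost in some of the fits that left out a single library. Of all tested genes, 4.37% were called in parental and 3.94% in guide 2 against empty-vector cells.

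MCF-10A is a non-tumorigenic human mammary epithelial line, and neurofibromin, the product of NF1, switches RAS off by speeding its hydrolysis of GTP. Poly(A) RNA was sequenced from 5 genotypes with 3 libraries each: the parental line, an empty-vector line, and cells edited in NF1 with guide RNA 1, with guide RNA 2, or with both guides, called here guide 1, guide 2 and both guides. All genotypes were untreated and grew in one medium, which held horse serum, EGF, hydrocortisone, cholera toxin and insulin. The labels call the 3 libraries of a genotype biological replicates but do not say whether an edited line was 1 clone or a pool of cells. The p-values below therefore measure the spread between libraries of a line, not between lines made separately with the same guide.

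CDK inhibitors fall into 2 families. The Cip/Kip proteins p21 (CDKN1A), p27 (CDKN1B) and p57 (CDKN1C) bind several cyclin-CDK complexes, and the INK4 proteins p16 (CDKN2A), p15 (CDKN2B), p18 (CDKN2C) and p19 (CDKN2D) bind CDK4 and CDK6 and keep them from cyclin D. CDKN2A also encodes ARF, from another first exon and reading frame, which restrains MDM2 and so stabilises p53. MTAP, methylthioadenosine phosphorylase, recycles a by-product of polyamine synthesis and is often lost together with CDKN2A in tumours. MCF-10A cells have been reported to lack the CDKN2A region, which is why detection of these genes is set out first.

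The library totals ranged from 46129559 to 78976917 counts, and the 15 libraries together held 864290713 counts. NF1 itself was at 150.8 ± 9.30 CPM (reads of a gene scaled to the library's total) in parental cells, 123.7 ± 8.87 in empty-vector cells, 47.4 ± 3.87 with guide 1, 29.4 ± 2.27 with guide 2 and 28.1 ± 1.81 with both guides (mean ± SD, n = 3 each), so the edited libraries did not overlap the unedited ones. Replicate 2 of guide 2 stood apart, with a correlation of log2 CPM of 0.947 to its own replicates, which correlated at 0.995 with each other. Other replicate pairs correlated at 0.979 to 0.995. The basal keratin KRT5 was present in all libraries at 625 to 4997 CPM, whereas the epithelial genes CDH1 and TP63 ranged from 0.0192 to 127.3 and from 0.0542 to 75.8 CPM. The T-cell gene CD3E was at 0 in all libraries, the leukocyte gene PTPRC did not exceed 0.0542 CPM, and the monocyte gene CD14 was present in all libraries at 3.24 to 6.95 CPM.

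The 2 genes of the INK4 family at 9p21 gave no reads. CDKN2A (ENSG00000147889; GENCODE 29 on GRCh38, chr9:21967753-21995301, minus strand) was at 0 counts in all 15 libraries, parental, empty-vector and edited alike. CDKN2B (ENSG00000147883; chr9:22002903-22009363, minus strand) was also at 0 in all 15. A count of 0 of 864290713 allows, at 3 counts, a level of up to 0.00347 CPM over all libraries, and in single libraries the same floor lay between 0.038 and 0.065 CPM; these limits cover counting error only. Of the 19915 genes annotated as protein-coding in the table, 3107 (15.6%) were at 0 in all libraries, so a gene at 0 is not rare in itself. Neither gene could be tested, and no difference between genotypes in either was detectable at this depth. Exons of CDKN2A lie 92.1% in bases that no other annotated gene covers, the rest being shared with the antisense gene CDKN2B-AS1, and those of CDKN2B lie 100% in such bases.

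Stretches before the 9p21 start sites are shown because these genes gave no or hardly any reads. They come from RefSeq promoter windows on GRCh38.p14, reduced to bases that lie in no annotated exon and are upstream of the start, and read 5′ to 3′ on the gene's strand. Capitals mark matches, on either strand, to 3 promoter motifs. These were TATAAA, found near many start sites, the CCAAT box, and the core of the binding site of Sp1, GGGCGG. The CDKN2A sequence is that of the ARF start (chr9:21995325-21995481, minus strand), the CDKN2B sequence is chr9:22009364-22009555 on the minus strand, and the MTAP sequence is chr9:21802386-21802542 on the plus strand.
CDKN2A, ARF start: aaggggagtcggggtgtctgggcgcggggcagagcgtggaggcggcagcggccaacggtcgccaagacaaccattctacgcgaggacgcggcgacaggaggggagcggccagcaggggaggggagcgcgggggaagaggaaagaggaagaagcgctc
CDKN2B: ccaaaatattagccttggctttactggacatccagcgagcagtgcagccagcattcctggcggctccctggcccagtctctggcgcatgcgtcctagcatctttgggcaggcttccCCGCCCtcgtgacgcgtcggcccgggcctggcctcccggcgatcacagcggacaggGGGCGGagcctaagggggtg
MTAP: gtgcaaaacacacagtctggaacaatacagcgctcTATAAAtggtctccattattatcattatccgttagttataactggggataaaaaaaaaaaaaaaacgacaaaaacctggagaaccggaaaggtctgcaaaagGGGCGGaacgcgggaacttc
The CDKN2A stretch at the ARF start held none of the 3 motifs. A second CDKN2A window, with its start at position 21974857, had an exon-free part of only 9 bases, which is not shown. CDKN2B held GGGCGG at 2 places, once on each strand, and MTAP held 1 TATAAA and 1 GGGCGG. Among all 35116 windows of 250 bases in the RefSeq table, 10.7% held TATAAA, 32% held CCAAT and 42.6% held GGGCGG, on either strand and with matches of different motifs allowed to overlap. In their own full windows of 250 bases, CDKN2A at the ARF start held none of the motifs, CDKN2B held GGGCGG at 2 places, and MTAP held TATAAA once, CCAAT once and GGGCGG at 2 places. The full window of the second CDKN2A start held 1 GGGCGG and neither of the other motifs. Over the same bases the GC content was 66.8% for CDKN2A at the ARF start, 66.4% for CDKN2B and 50% for MTAP, beside a median of 58% over all windows.

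MTAP (ENSG00000099810; chr9:21802543-21937651, plus strand) was counted, but barely. The parental libraries had 1, 3 and 0 counts, the empty-vector libraries 6, 8 and 7, guide 1 had 6, 10 and 9, guide 2 had 3, 7 and 9, and both guides had 4, 3 and 8 (replicates 1 to 3). The 3 parental libraries were the lowest in CPM, at 0 to 0.047, and every other library lay between 0.0535 and 0.1475 CPM. Over each genotype's reads together the rate was 0.0239 CPM in parental cells (exact Poisson 95% interval 0.00652 to 0.0613), 0.127 with empty vector (0.0788 to 0.195), 0.129 with guide 1 (0.0832 to 0.19), 0.106 with guide 2 (0.0637 to 0.165) and 0.0948 with both guides (0.0531 to 0.156). These intervals cover counting error of the pooled reads only, not the spread between libraries. Thus 13 of 15 libraries reached 3 counts and 1 reached 10. These counts did not pass the filter, and in a fit of all 35374 genes with any count the log2 fold change of parental cells against empty vector was -2.37 with an edgeR adjusted p of 0.136. MTAP exons lie 90.4% in bases that no other annotated gene covers, and the counting of reads from close copies is not given in the sources used here.

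The annotated genes around CDKN2A and CDKN2B were also at or near 0, and reads returned on both sides at levels that differed by gene. Between MIR31HG, a long non-coding RNA gene ending at position 21559669, and DMRTA1, a transcription factor gene starting at 22446841, the table lists 18 annotated genes over 887171 bases. Of these, 14 were at 0 in all libraries, most of them pseudogenes or non-coding genes, and the highest count of any was the 10 of MTAP. Over all 60721 genes of the table, coding and non-coding, 41.7% were at 0 in all libraries. The other 3 with any count were the pseudogene KHSRPP1 (0 to 6 counts), CDKN2B-AS1 (0 to 4 counts, 16 in all) and a long intergenic RNA gene, ENSG00000236921 (0 to 3 counts). From the start of MTAP to the end of CDKN2B-AS1 the block spans 318555 bases. Towards the chromosome end, MIR31HG had 151 to 321 counts per library, KLHL9, a ubiquitin ligase adaptor, had 1171 to 2398, and FOCAD had 1913 to 3701. On the other side DMRTA1 had 4 to 90 counts, with the 4 in replicate 2 of guide 2 and at least 25 in each other library, and the RNA-binding protein gene ELAVL2 had 336 to 991.

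**Figure D1:**
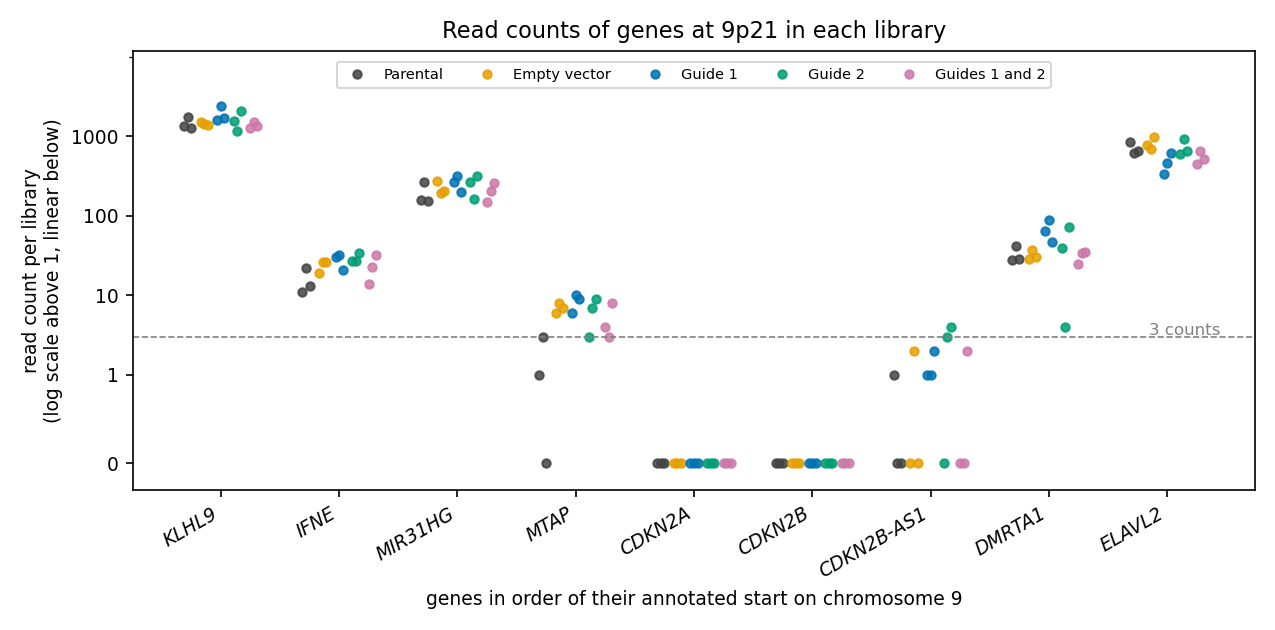
Read counts per library (vertical axis, logarithmic above 1 and linear below) of 9 genes at 9p21 in the order of their starts on chromosome 9 (horizontal axis), coloured by genotype; the dashed line marks 3 counts. CDKN2A and CDKN2B lie at 0 in all 15 libraries, MTAP between 0 and 10, and KLHL9 and ELAVL2 at 336 or more.

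A list of 36 genes of 9p21 and its surroundings, from MLLT3 to C9orf72, also held genes at 0 well outside that block. In it 19 genes were at 0 in all libraries, 13 had at least 10 counts in all libraries, and 4 lay between. The 15 type I interferon genes of the list (the IFNA genes, IFNB1 and IFNW1), which lie between FOCAD and MIR31HG, were all at 0 as well, whereas IFNE, an interferon gene expressed in epithelia, had 11 to 34 counts. Only CDKN2A and CDKN2B of the 19 lie between MIR31HG and DMRTA1, and HACD4, outside that stretch, had 1 count in all. Of the 14 listed genes that were tested, ELAVL2 fell with guide 1 against empty vector (log2 fold change -1.03, adjusted p = 0.0329). The angiopoietin receptor gene TEK fell with guide 2 (-1.12, adjusted p = 0.02) and was lower in parental cells (-1.46, adjusted p = 0.008), both against empty vector. Of all tested genes, 5.88%, 3.94% and 4.37% were called for guide 1, guide 2 and parental cells against empty vector. The other 5 comparisons called none of the 14.

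Among the 5 tested genes, levels per length differed widely. Averaged over 15 libraries, CDKN1A was at 65.3 CPM per kilobase of annotated exon, CDKN1B at 12.5, CDKN2C at 9.73, CDKN2D at 3.67 and CDKN1C at 2.57. CDKN1A was thus 5.23 times CDKN1B and 25.4 times CDKN1C on this scale, while MTAP was at 0.0065. The exon lengths sum all annotated isoforms, so these ratios depend on which isoforms the cells use.

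CDKN1A (ENSG00000124762; chr6:36676460-36687339, plus strand) encodes p21, the inhibitor induced by p53. Its levels were 109, 129.5 and 112.7 CPM in the parental libraries and 264, 268.7 and 255.4 CPM with empty vector. They were 324.5, 327.4 and 168.1 CPM with guide 1, 193.5, 89.95 and 200.2 CPM with guide 2, and 176.4, 182.2 and 185.7 CPM with both guides (replicates 1 to 3). The parental and empty-vector libraries did not overlap. Within guide 1, replicate 3 was far below the other 2, and within guide 2, replicate 2 was below every other library of the study. In order of group means, parental cells (117.1 ± 10.9) were followed by guide 2 (161.2 ± 61.8), both guides (181.5 ± 4.70), empty vector (262.7 ± 6.74) and guide 1 (273.3 ± 91.2 CPM, SD, n = 3 each). Of the neighbours in this order, only both guides and empty vector did not overlap. In bulk RNA, fewer cells that express a gene and less RNA per cell cannot be told apart.

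Sequence before a CDKN1A start is shown because CDKN1A was the most abundant of these genes and one of the 3 called. The exon-free part of the window is chr6:36678560-36678657 on the plus strand (RefSeq, GRCh38.p14), ending 57 bases before the RefSeq start at position 36678714, with motif matches in capitals as above.
CDKN1A: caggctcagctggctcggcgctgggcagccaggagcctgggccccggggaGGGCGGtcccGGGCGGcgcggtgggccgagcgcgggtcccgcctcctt
It held GGGCGG at 2 places and neither of the other motifs, and the full window of 250 bases held GGGCGG at 4 places.

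CDKN1A was lower in parental than in empty-vector cells, with a log2 fold change of -1.20 (SE 0.277, 95% interval -1.80 to -0.60, a fold of 0.436) and an edgeR adjusted p of 0.0304. In that comparison 762 of 17457 tested genes were called, 4.37%, and 2 of the 5 tested members. The call was lost when any 1 of the 6 compared libraries was left out (adjusted p between 0.0812 and 0.0949), and kept without replicate 2 of guide 2, where the adjusted p was 0.00152. In the other 7 comparisons the log2 fold change of CDKN1A lay between -0.71 (guide 2 against empty vector) and 1.25 (guide 1 against parental), and none was called. Guide 1 against parental cells had an adjusted p of 0.104.

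CDKN1B (ENSG00000111276; chr12:12715058-12722371, plus strand) encodes p27, an inhibitor whose level is set largely by protein degradation. Parental libraries had 42.76, 45.39 and 41.91 CPM, and every other library was below them. Empty-vector libraries had 32.93, 29.09 and 31 CPM, guide 1 had 30.19, 28.59 and 35.62, guide 2 had 34.54, 39.09 and 37.54, and both guides had 34.34, 34.42 and 29.15. Of neighbouring groups by mean, parental did not overlap guide 2, and guide 2 did not overlap both guides, whereas both guides, guide 1 and empty vector overlapped. Parental cells were higher than empty vector by a log2 fold change of 0.45 (SE 0.0944, 95% interval 0.25 to 0.66, a fold of 1.37), with an adjusted p of 0.0206. This call was lost without any of the 3 parental libraries, without empty-vector replicate 2 or without its replicate 3 (adjusted p between 0.0556 and 0.0853), and kept without its replicate 1 and without replicate 2 of guide 2 (0.00808). Thus CDKN1A and CDKN1B, both Cip/Kip genes, differed between the unedited lines in opposite directions.

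CDKN1C (ENSG00000129757; chr11:2883213-2885773, minus strand) encodes p57, the imprinted member of the family. It was at 4.157, 7.191 and 7.187 CPM in parental libraries and at 4.149, 4.296 and 2.462 CPM with empty vector. With guide 1 it was at 8.788, 11.65 and 7.88 CPM, with guide 2 at 6.088, 1.323 and 8.181 CPM, and with both guides at 8.693, 7.291 and 6.239 CPM. Both guide 1 and both guides lay above all empty-vector libraries, and guide 2 ran from 1.323 to 8.181 CPM, its replicate 2 being the lowest library of all. No comparison called CDKN1C. The difference nearest to the threshold was guide 1 against empty vector, at a log2 fold change of 1.37 (SE 0.475, 95% interval 0.35 to 2.40, adjusted p = 0.112). With replicate 2 of guide 2 left out, the fit called CDKN1C in 3 of the 4 comparisons with empty vector, those of the edited lines. The calls over all 17457 genes then went from 1026 to 3231 for guide 1, from 687 to 2515 for guide 2 and from 168 to 1142 for both guides.

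**Figure D2:**
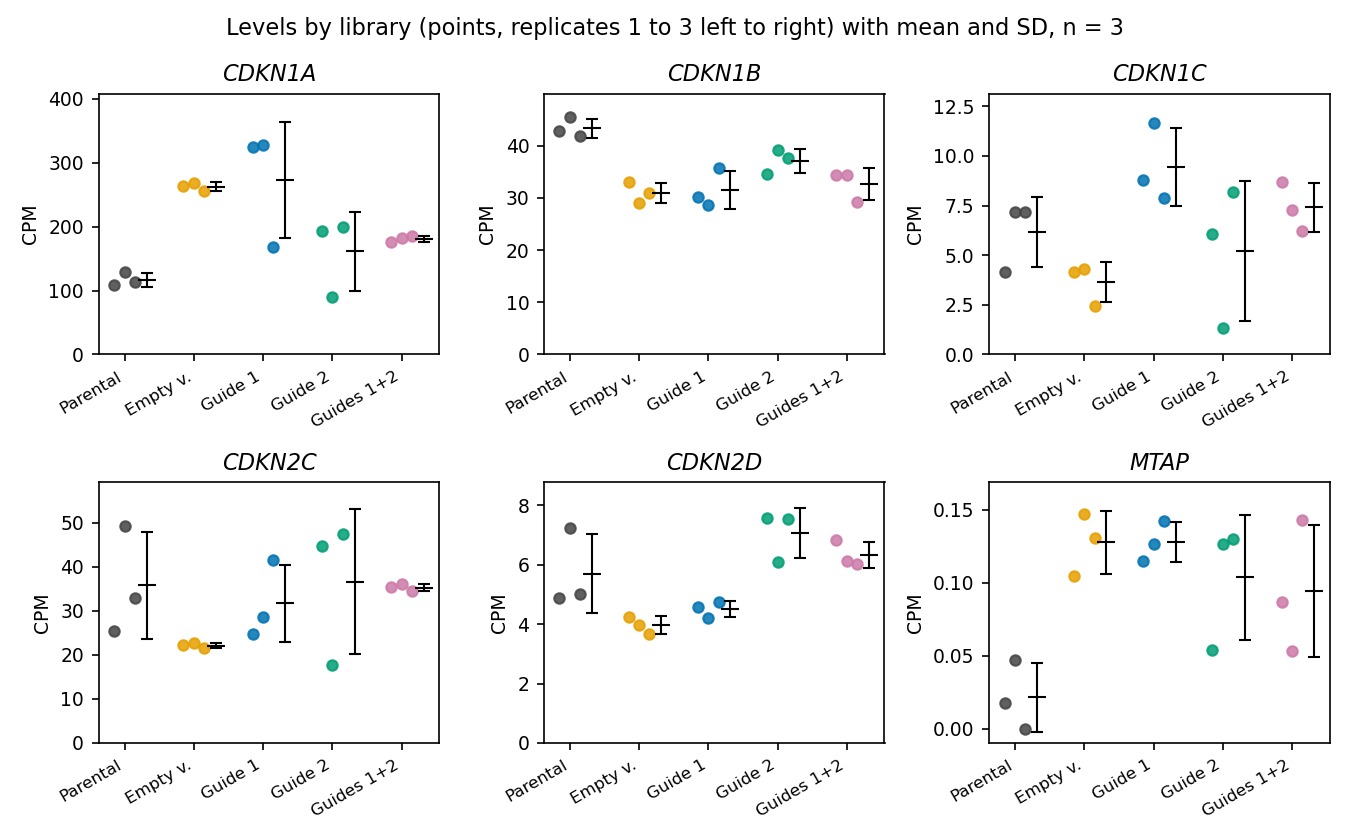
CPM (vertical axes) of 6 genes in each library of the 5 genotypes (horizontal axes); points are replicates 1 to 3 from left to right, and the bar beside them is the mean with its SD, n = 3. Parental libraries are lowest for CDKN1A apart from replicate 2 of guide 2, highest for CDKN1B, and lowest for MTAP, where no library exceeds 0.1475 CPM.

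CDKN2C (ENSG00000123080; chr1:50960745-50974633, plus strand) encodes the INK4 protein p18. Its 3 empty-vector libraries lay close together at 22.15, 22.57 and 21.52 CPM, and all other libraries but replicate 2 of guide 2 lay above them. Parental libraries had 25.4, 49.16 and 32.88 CPM, guide 1 had 24.68, 28.65 and 41.58, guide 2 had 44.66, 17.73 and 47.47, and both guides had 35.31, 36.01 and 34.45. No comparison called it. Against empty vector its log2 fold changes were 0.51 with guide 1, 0.72 with guide 2, 0.65 with both guides and 0.67 in the parental line, and they had adjusted p of 0.389, 0.244, 0.393 and 0.27; these comparisons share their control libraries.

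CDKN2D (ENSG00000129355; chr19:10566462-10569059, minus strand) encodes the INK4 protein p19. The exon-free stretch before its start is shown because this is the only gene of the group called in an edited line. It is chr19:10569060-10569229 on the minus strand (RefSeq, GRCh38.p14), with motif matches in capitals as above.
CDKN2D: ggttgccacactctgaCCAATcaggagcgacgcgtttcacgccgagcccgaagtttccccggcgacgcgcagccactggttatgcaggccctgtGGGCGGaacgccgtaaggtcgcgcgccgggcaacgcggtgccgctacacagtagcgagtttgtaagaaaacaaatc
It held 1 CCAAT and 1 GGGCGG, and no TATAAA.

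Parental libraries had 4.876, 7.222 and 5.001 CPM of CDKN2D, empty-vector libraries 4.254, 3.983 and 3.656, and guide 1 libraries 4.576, 4.216 and 4.747. Guide 2 libraries had 7.57, 6.09 and 7.545 CPM, and both guides had 6.829, 6.115 and 6.024. All libraries of guide 2 and of both guides were thus above all of empty vector and guide 1, and so were the parental libraries, which overlapped guide 2 and both guides. Guide 2 was higher than empty vector by a log2 fold change of 0.82 (SE 0.159, 95% interval 0.48 to 1.17, a fold of 1.77), with an adjusted p of 0.0153. In that comparison 687 of 17457 genes were called, 3.94%, and 1 of the 5 tested members. The call was lost without empty-vector replicate 3 (adjusted p 0.0763), guide 2 replicate 1 (0.0526) or guide 2 replicate 3 (0.0513), and with only these 2 genotypes in the fit (0.148). Without replicate 2 of guide 2 the log2 fold change was 0.91 and the adjusted p 0.00247. Both guides against empty vector gave a log2 fold change of 0.65 with an edgeR adjusted p of 0.0718, and guide 1 gave 0.18 with 0.562. Guide 2 against the other unedited line, parental cells, gave 0.33 with 0.701. Parental cells against empty vector gave 0.49 with 0.1. Whether guide 1 and guide 2 differ from each other was not tested.

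The remaining comparisons called none of the 5 tested members. They were guide 1 against empty vector, where 5.88% of all tested genes were called, both guides against empty vector (0.962%), guide 1 against parental cells (0.149%), guide 2 against parental cells (0.0516%) and both guides against parental cells (0.195%). Beside these shares, a count of 0 among 5 is near the background in all of these comparisons. At an unadjusted p under 0.05 the edgeR fit called CDKN1C in the first, CDKN2D in the second, CDKN1A and CDKN1B in the third, CDKN1B in the fourth, and CDKN1A and CDKN1B in the fifth. Over all genes tested, 21.4%, 14%, 19.9%, 7.37% and 9.98% had such a p in these comparisons, so the 1 member of 5 in each of the first 2 is near that background. DESeq2 called 1, 1, 2, 0 and 1 of the 5 genes in these comparisons, in the same order. How many of all genes DESeq2 called was not recorded, and the shares above, from edgeR, are no background for it.

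The mean of the 3 edited lines was also set against the mean of the 2 unedited ones, where 1.51% of genes were called and none of the 5. CDKN1A had a log2 fold change of 0.19 (95% interval -0.19 to 0.57, adjusted p = 0.654) and CDKN1B one of -0.12 (-0.26 to 0.01, adjusted p = 0.344). CDKN1C had 0.60 (-0.07 to 1.26, adjusted p = 0.371), CDKN2C 0.29 (-0.15 to 0.74, adjusted p = 0.532) and CDKN2D 0.30 (0.08 to 0.53, adjusted p = 0.166). The intervals leave room for changes in either direction for all but CDKN2D, whose unadjusted p was 0.0114. Without replicate 2 of guide 2 the same comparison called CDKN1C (adjusted p 0.00857) and CDKN2D (0.0309), while the calls over all 17457 genes went from 263 to 3152. Since the unedited lines differed from each other in CDKN1A and CDKN1B, this mean lies between unlike controls for those 2 genes.

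**Figure D3:**
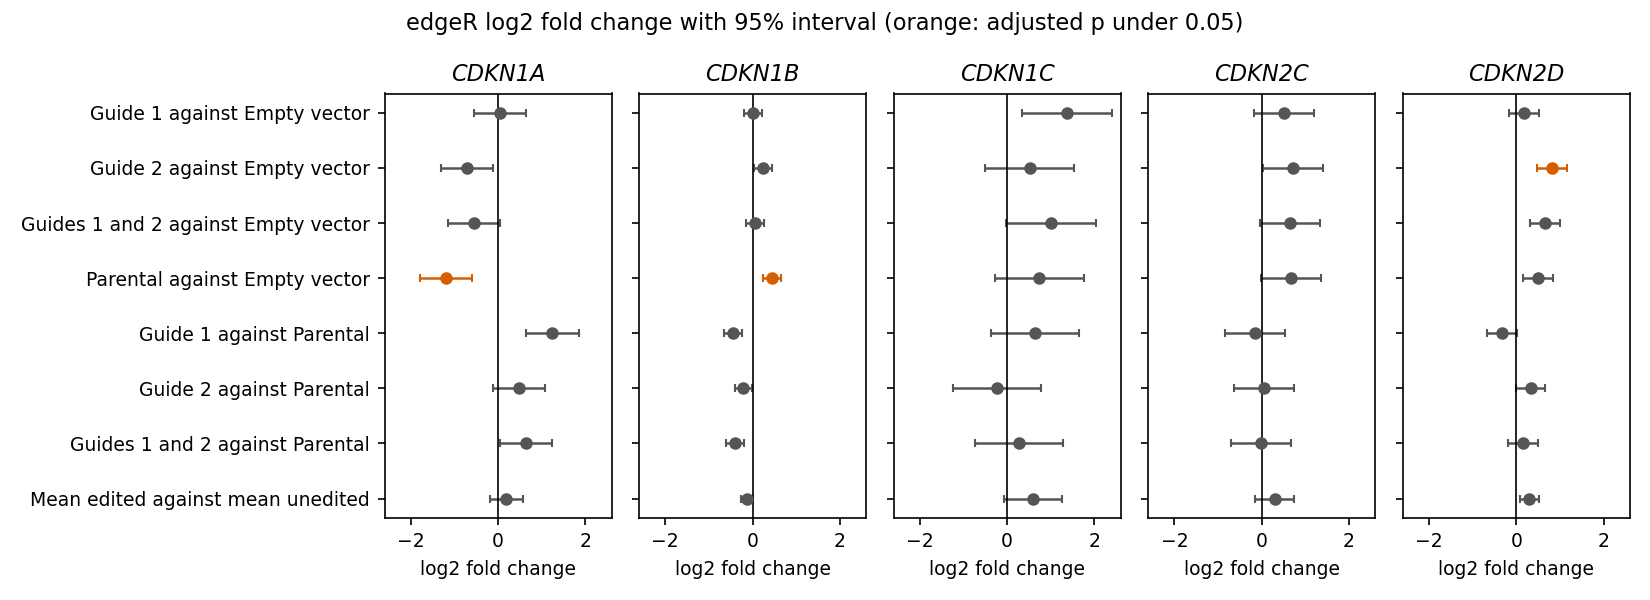
Log2 fold change (horizontal axes) of the 5 tested genes in the 8 comparisons (vertical axis), from the edgeR fit over 15 libraries, with 95% intervals; orange marks an adjusted p under 0.05. The 3 orange points are CDKN1A at -1.20 and CDKN1B at 0.45 in parental against empty vector, and CDKN2D at 0.82 in guide 2 against empty vector.

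Genes that act with these inhibitors were described from fixed lists. Of 15 targets of p53, a list that leaves out CDKN1A itself, 4 were lower in parental than in empty-vector cells and none higher, where 4.37% of all tested genes were called. These were PLK3 (log2 fold change -0.69), SESN2 (-0.61), SESN1 (-0.60) and FAS (-0.53), of which the sestrins are stress-response genes and FAS is a death receptor. All 15 had negative estimates, and their median was -0.53 beside 0.01 over all tested genes. With guide 2 against empty vector, where 3.94% of all tested genes were called, 2 of the 15 fell, SESN1 (-0.62) and SESN2 (-0.49). The median was -0.30 beside 0.03. The other 6 comparisons called none, though in guide 1 against parental cells all 15 estimates were positive, with a median of 0.48. The summed level of the 15 was 944 to 1026 CPM with empty vector and 745 to 841 CPM in parental cells.

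Of 10 proliferation genes, CDK1, the mitotic kinase, and TOP2A, a topoisomerase of dividing cells, were higher in parental cells (log2 fold changes 0.73 and 0.91) and with guide 2 (0.86 and 0.81), each against empty vector. Of all tested genes, 4.37% and 3.94% were called there. No gene of the list was called lower in any comparison, and in those 2 comparisons all 10 had positive estimates. All 10 were also positive in both guides against empty vector, with a median of 0.54 beside -0.001 over all tested genes, and none was called. In guide 1 against parental cells all 10 were negative, with a median of -0.52 beside -0.01 over all tested genes, and none was called. The summed level of the 10 was 1916, 2021 and 2351 CPM in the empty-vector libraries and 3273 to 3554 CPM in the parental ones. In guide 1 it was 1845 and 1857 CPM in replicates 1 and 2, where CDKN1A was 324.5 and 327.4 CPM, and 3433 CPM in replicate 3, where CDKN1A was 168.1 CPM. Guide 2 libraries had 3077 to 3405 CPM and both guides 3009 to 3184. So the 5 libraries with the most CDKN1A RNA were those with the least proliferation RNA, and they include the whole empty-vector group, the main control. The part of growth state in the differences in CDKN1A, CDKN1B and CDKN2D against empty vector was not tested.

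Summed levels of some other marker lists did not overlap between parental and empty-vector libraries, though the endothelial ranges nearly touched. These sums were not tested, and how many of all genes separate these groups in this way was not counted. The summed level of 7 luminal markers was 297 to 337 CPM in parental and 369 to 383 CPM in empty-vector libraries, with PGR at 0 in 14 of 15 libraries. That of 6 leukocyte markers was 3.31 to 3.96 against 4.81 to 7.01 CPM, most of it CD14, with CD3E at 0 throughout, and that of 4 endothelial markers was 4.53 to 11.97 against 2.43 to 4.46 CPM, with KDR at 1.72 to 10.99 and PECAM1 at 0.586 to 1.99 CPM in all libraries and CDH5 at 0 in 13. The 7 fibroblast markers overlapped between these 2 groups, at 108 to 139 and 103 to 146 CPM, and reached 437 to 1105 CPM with guide 1, where they were mainly DCN. Of 10 basal markers, the summed level was highest in empty-vector replicate 3 (13440 CPM) and guide 2 replicate 2 (13390 CPM), the 2 libraries with the least CDKN1C, at 2.462 and 1.323 CPM. It was 2464 to 2729 CPM in guide 1, whose libraries had 7.88 to 11.65 CPM of CDKN1C. The basal sums of parental replicates 1 to 3 were 7988, 2749 and 6639 CPM. They overlapped the 7432 to 13440 CPM of the empty-vector libraries. The part of these markers in the members' levels was not tested.

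**Figure D4:**
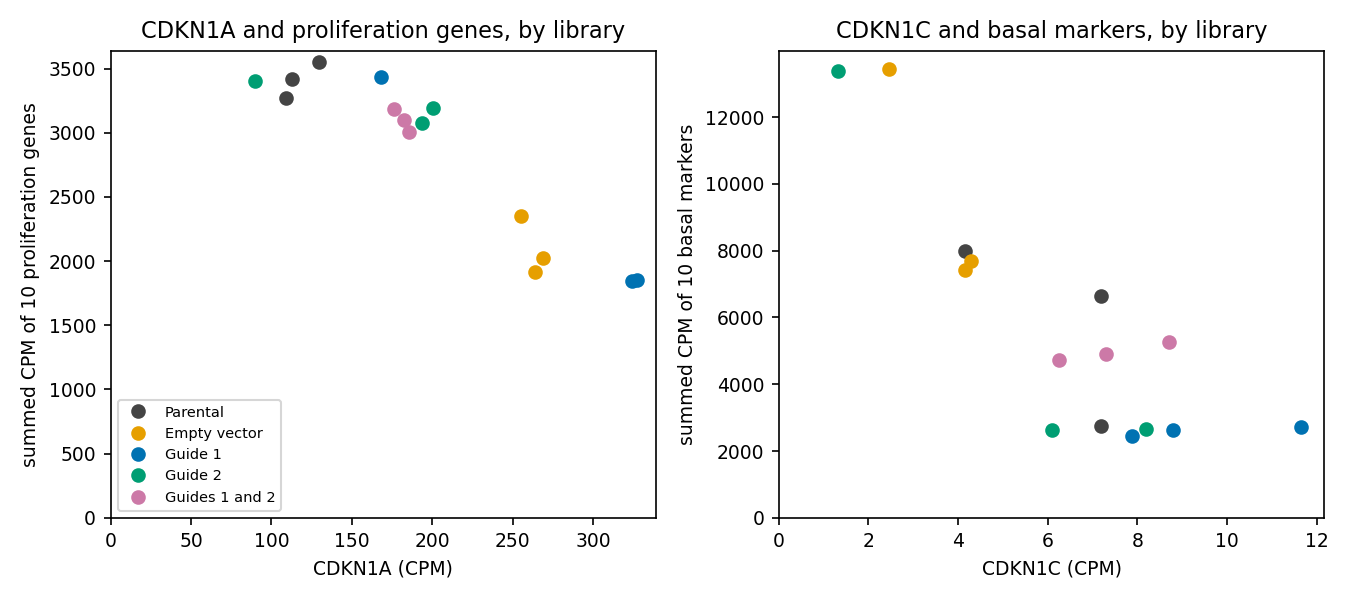
Each point is 1 library, coloured by genotype. On the left, CDKN1A (horizontal axis, CPM) is set against the summed CPM of 10 proliferation genes; on the right, CDKN1C (CPM) against the summed CPM of 10 basal markers. The empty-vector libraries and replicates 1 and 2 of guide 1 lie at the lower right of the first panel, and empty-vector replicate 3 and guide 2 replicate 2 at the upper left of the second.

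The counts of called genes in the lists that follow are small, and stand beside the 5.88%, 3.94%, 0.962% and 4.37% of all tested genes called for guide 1, guide 2, both guides and parental cells against empty vector. Of the 17 cyclins, CDKs and RB family members, the partners and targets of the inhibitors, CDK1 was the only one higher with guide 2 against empty vector. In parental against empty vector CDK1 was higher and CCND3, cyclin D3, lower (log2 fold change -0.42). The other 6 comparisons called none of the 17. Of 11 genes of CDK inhibitor turnover, FZR1, an activator of the anaphase-promoting complex, rose with guide 2 (0.40), and CKS1B, the cofactor with which SKP2 binds p27, was higher in parental cells (0.73), both against empty vector.

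Of 25 regulators of CDK inhibitor transcription, 3 fell with guide 1 against empty vector: TGFBR1, a receptor of TGF-beta (log2 fold change -0.84), ETS2, a transcription factor acting below RAS (-0.77), and KLF6, a zinc-finger factor (-0.53). ETS2 also fell with both guides (-0.69) and in the mean of the edited lines (-0.48, edgeR adjusted p = 0.0142). It was the only one of the 25 called in that mean, where 1.51% of all tested genes were called. KLF6 was lower in parental cells (-0.57), and EZH2, the Polycomb methyltransferase that acts on the INK4 genes, was higher with guide 2 (0.59). The 3 comparisons with parental cells as control called none of the 25.

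Of 18 genes of the methylthioadenosine and polyamine pathway, in which MTAP works, SAT1, the enzyme that marks polyamines for export and breakdown, was lower in parental cells (log2 fold change -1.0) and with guide 2 (-0.72), each against empty vector. Parental cells also had less APRT, which salvages the adenine that MTAP releases (-0.44), and more ADI1, of the methionine salvage steps after MTAP (0.26). The other 6 comparisons called none, and all 18 genes passed the filter while MTAP did not.

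By the correlation of log2 CPM over the 15 libraries, among 11631 other genes, the genes most like CDKN1A were RAET1E (r = 0.981), GPR137B (0.964) and SRP14 (0.960). Those most like CDKN1B were ALG9 (0.937), THUMPD1 (0.937) and SIX4 (0.928). CDKN1C was most like SPX (0.970), SRPX (0.960) and TBX3 (0.958), and CDKN2C most like MXD3 (0.971), REXO5 (0.957) and SMARCAL1 (0.944). The closest genes to CDKN2D were ARMCX3 (0.883), UNK (0.872) and AP1M1 (0.870), a lower likeness than for the other 4. These values describe 15 libraries that fall into 5 lines and differ in depth, and they are the highest of many. Without replicate 2 of guide 2 the CDKN1C values fell to 0.938, 0.930 and 0.912. Those of the other 4 members moved less, in both directions.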

How the data were processed

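Poly(A) RNA of MCF-10A cells was sequenced in 15 libraries, 3 for each of 5 genotypes. The authors deposited whole-number read counts per gene and the same values as CPM, which match CPM recomputed from these counts and their library totals to within 4.91e-11. Per the submitters' processing notes, Trim Galore 0.6.0, STAR 2.7.8a and GRCh38 were used; which program and gene models were used for counting, and whether by strand, is not given in the sources used here. Strand bears on CDKN1A, CDKN2A and MTAP, which overlap other genes.

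Symbols came from a table of gene names (60357 of 60721 identifiers) and positions from GENCODE 29 (58503). Counts were tested with edgeR 4.0.16 in R 4.3.3: filterByExpr by genotype (17457 genes left), TMM factors (0.9725 to 1.017), and 1 group-means quasi-likelihood fit over 15 libraries with 10 residual degrees of freedom. Tests were two-sided, p-values were adjusted by Benjamini-Hochberg over all tested genes, and a gene was called at an adjusted p under 0.05. SE is the absolute log2 fold change over the square root of F. The procedure was tested on simulated data, where it made hardly any false calls but missed most genes changed 2-fold in 1 group, so a gene not called may still have changed. The simulated libraries were drawn independently, with none that stood apart and no shared deviations of replicates. Their few false calls therefore do not carry over to these data.

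The alternatives were RLE scaling, no filter, a replicate block, only the compared genotypes, limma 3.58.1 voom with sample quality weights, DESeq2 1.42.0, each library left out, and a detection floor of 10 instead of 3 counts. Equal replicate numbers of empty vector and guide 1 deviated together across genes (r between 0.343 and 0.429), though the labels record no shared handling; no other pair of genotypes did so in all 3 numbers. Replicate pairs differed beyond sampling noise in 24.6 to 76.8% of the genes that had 20 or more counts over both libraries, so none was merged.

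All 8 members were named, with a log2 fold change where called and in the mean of the edited against the unedited lines. Other values of members are given to complete the comparisons. Of each list the called genes were named, at most the 3 largest in each direction; FAS, beyond these, was named after its value was seen; per tested member, the 3 genes with the highest correlation (average log2 CPM of at least 1, prior count 2) were named. The value of 1 leukocyte marker is not reported here. Members and lists were chosen with earlier results of these data known. Motifs and exon-free stretches were found with Python 3.11.15. A RefSeq window was matched for 7 of the 8 members; CDKN1C had none.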

Additional observations from a re-analysis of the deposited data

How the results depend on the processing

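The 3 called log2 fold changes, and those of the 5 tested members in the mean of the edited lines, had the same direction under each alternative run for them; other fold changes were not recomputed, and the mean was not run with only the compared genotypes. The number called moved more. RLE scaling left the number called in all 8 comparisons as it was. With the replicate block, parental against empty vector went from 2 called to 0 (CDKN1A adjusted p 0.0633, CDKN1B 0.0511), and no other count moved. Calls over all genes in that comparison went from 762 to 400. For empty vector and guide 1, whose equal numbers deviated together, 0 were called with and without the block. For parental and empty vector the same check gave r between -0.245 and 0.497. These mixed values cannot settle whether those libraries shared handling, which the labels do not record. With no filter, guide 1 against parental had 1 called. With only the compared genotypes in the fit, the count was 1 for guide 1, 0 for guide 2 and 4 for both guides against empty vector, and 1 for both guides against parental. DESeq2 called 1 for guide 1 and 1 for both guides against empty vector, 2 for guide 1 and 1 for both guides against parental, and 3 in place of 2 for parental against empty vector, adding CDKN2D. With voom sample quality weights, which gave replicate 2 of guide 2 a weight of 0.0518, the counts were 2, 5, 4 and 5 for guide 1, guide 2, both guides and parental against empty vector, 4, 4 and 3 for guide 1, guide 2 and both guides against parental, and 5 for the mean of the edited lines. How many of all genes were called was recorded only for the main fit, the replicate block and the fit without replicate 2 of guide 2. The other counts of members in this section therefore have no such background beside them.

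Leaving out 1 library at a time gave 0 to 1 called for guide 1, 0 to 3 for guide 2, 0 to 2 for both guides and 0 to 4 for parental against empty vector. It gave 0 to 2, 0 to 1 and 0 to 1 for guide 1, guide 2 and both guides against parental, and 0 to 2 for the mean. In each of the 8 comparisons the highest count came without replicate 2 of guide 2, equalled for guide 1 against parental by the fit without guide 1 replicate 3. Without replicate 2 of guide 2, parental against empty vector called CDKN1A, CDKN1B, CDKN2C and CDKN2D, and the calls over all genes there rose from 762 to 2450. Both guides against empty vector called CDKN2D also without parental replicate 2. The cause was not tested. With a floor of 10 counts instead of 3, MTAP was detected in 1 library in place of 13, and CDKN2A and CDKN2B in none under either floor. Depth limits the statements on MTAP, which had 84 counts in all.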
